A study of Mus musculus with 6 samples.

Results

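Von Willebrand factor, coagulation factor VIII, tissue factor, the plasminogen activators and the endothelial anticoagulants decide how readily blood clots at a vessel wall, and their transcripts were followed here in endothelial cells (ECs) of the mouse thymus. The set holds 8 of the 24457 genes in the tables: Vwf, F8, F3, Plat, Plau, Thbd, Procr and Tfpi. Vwf was chosen by its measured FPKM, for a rise in type III ECs, so its values are a description and carry no test. The other 7 were taken as the endothelial genes of the same system, with earlier results of these data known.

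RNA of sorted thymic ECs was sequenced in 6 libraries, 2 for each of 3 subsets, from the thymus of wildtype C57BL/6 female mice aged 4 to 6 weeks by the labels. All the cells were CD31+CD45-EpCAM-, and surface Ly6C and P-selectin (Selp) separated type I (Ly6c+ Selp-), type II (Ly6c+ Selp+) and type III (Ly6c- Selp+), which the study calls thymic portal ECs. The sort purity was at least 90%. Nothing in the labels says whether the libraries came from separate animals or pools, so a p-value here measures only the spread between these samples, which may be technical.

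Endothelial cells store von Willebrand factor in Weibel-Palade bodies and release it on stimulation, when it tethers platelets and carries factor VIII in plasma. Thrombomodulin and the endothelial protein C receptor (EPCR) sit on the same cells and together turn thrombin towards activation of protein C, which destroys clotting factors. Clots are dissolved by plasmin, which the tissue and urokinase plasminogen activators make from plasminogen, and veins and arteries are known to differ from capillaries in many of these molecules.

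Where the values of a subset are given in a pair, replicate 1 stands first. Values are FPKM as deposited, fragments scaled by transcript length and by the depth of the library. The interval bounds in the tables correspond to 1452476 to 2423171 fragments per library, and 3 fragments to a median FPKM of 0.324 to 0.553. The 10 vascular EC markers (Pecam1, Cdh5 and others) summed to 2134 to 3044 FPKM and were all detected. Thymocyte markers summed to 29.2 to 100 FPKM in type I, 46.0 to 66.1 in type II and 81.5 to 167.5 in type III, and thymic epithelial markers to 26.5 to 90.4, 33.0 to 62.5 and 18.4 to 85.3. Fewer cells of a type and less RNA per cell cannot be told apart in such bulk samples. A difference is the difference in mean log2(FPKM + 1), tested with limma on 11717 genes, and "called" means a Benjamini-Hochberg adjusted p under 0.05. Of the 10 EC markers, 2 were called lower in type III than in type I, Kdr and Cldn5, and 0 higher. Of all tested genes, 4.14% were called there. Without overlap, 5 of the 10 were lower and 2 higher, Pecam1 among the latter, where 37.9% of all genes did not overlap. With 2 libraries against 2, an exact two-sided permutation test of 1 gene could not go below 0.33. The 3 comparisons share libraries and are not independent.

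F8 and Procr are shown with the 250 bases before their RefSeq start (GRCm38.p6, read in the direction of transcription), because they are the members other than Vwf called higher in type III than in type I. The F8 window is chrX:75380042-75380291 on the minus strand, and that of Procr is chr2:155750967-155751216 on the plus strand. Capitals mark matches on either strand to the NF-kB consensus motif and to CACCC, a KLF-type motif.
F8: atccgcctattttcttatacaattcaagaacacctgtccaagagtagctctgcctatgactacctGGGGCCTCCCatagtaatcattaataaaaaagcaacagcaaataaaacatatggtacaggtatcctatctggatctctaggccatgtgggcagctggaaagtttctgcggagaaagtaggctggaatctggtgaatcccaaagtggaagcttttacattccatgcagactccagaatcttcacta
Procr: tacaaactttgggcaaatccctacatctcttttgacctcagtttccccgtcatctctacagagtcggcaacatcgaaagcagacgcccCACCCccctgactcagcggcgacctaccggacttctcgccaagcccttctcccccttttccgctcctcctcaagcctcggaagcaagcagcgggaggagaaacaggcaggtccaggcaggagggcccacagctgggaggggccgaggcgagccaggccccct
The F8 window held 1 place that matched the NF-kB consensus on both strands, at 185 bases before the start, and no CACCC. That of Procr held 1 match to CACCC, at 162 bases, and none to the NF-kB consensus. Of 32851 promoter windows of this length, 7.25% held the NF-kB consensus and 52% held CACCC. The window of F3, which was not called in any comparison, held 3 matches to CACCC and none to the NF-kB consensus, and each of the windows of 2 Tfpi starts held 1 CACCC. No match to CCGGAA, an ETS-type motif that 12% of all windows held, was found in the F8 or Procr window. The same was true of the motif for the GATA family of transcription factors, AGATAA, which 9.99% of all windows held. The core promoter motif TATAAA, which 12.4% held, was also not found in either. Windows of Vwf, Plat, Plau and Thbd were not analysed here. On mm9 the F8 start is at 72625380 in the deposited locus and at 72627954 in GENCODE vM1. The F8 window before the RefSeq start may therefore lie inside the longer annotated gene.

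Vwf (mm9 chr6:125502966-125636697, plus strand), the adhesive protein of Weibel-Palade bodies, was at 14.9 and 18.5 FPKM in the type I libraries, 163.5 and 258.8 in type II, and 668.7 and 1095 in type III. The subsets did not overlap, and each type III library was above each type II library. The means were 16.7 ± 2.54, 211.1 ± 67.4 and 881.8 ± 301.4 FPKM (SD, n = 2), which put type III 52.7-fold above type I and type II 12.6-fold above it. By FPKM, Vwf ranked 43 and 14 among all genes in the type III libraries, 234 and 118 in type II, and 3393 and 2057 in type I. It took 0.842% and 1.48% of the estimated fragments in type III against 0.0197% and 0.0306% in type I. On the log2(FPKM + 1) scale the difference between type III and type I was 5.39 between the libraries numbered 1 and 5.81 between those numbered 2. Relative to Pecam1, the EC surface protein CD31 used in the sort, the ratio of Vwf was 0.0223 and 0.0373 in type I, 0.222 and 0.384 in type II, and 0.772 and 1.35 in type III.

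Platelets and their precursors also contain Vwf transcripts. The 8 megakaryocyte and platelet markers summed to 1.46 to 2.31 FPKM in type I, 3.61 to 6.07 in type II and 1.90 to 5.31 in type III, and 1 of the 8, Pf4, passed the filter on low values. Pf4, a platelet chemokine, was listed at 0 in both type I libraries, was at 1.12 and 3.52 FPKM in type II, and was listed at 0 and at 0.670 in type III. The part of such cells in the Vwf values was not tested.

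**Figure D1:**
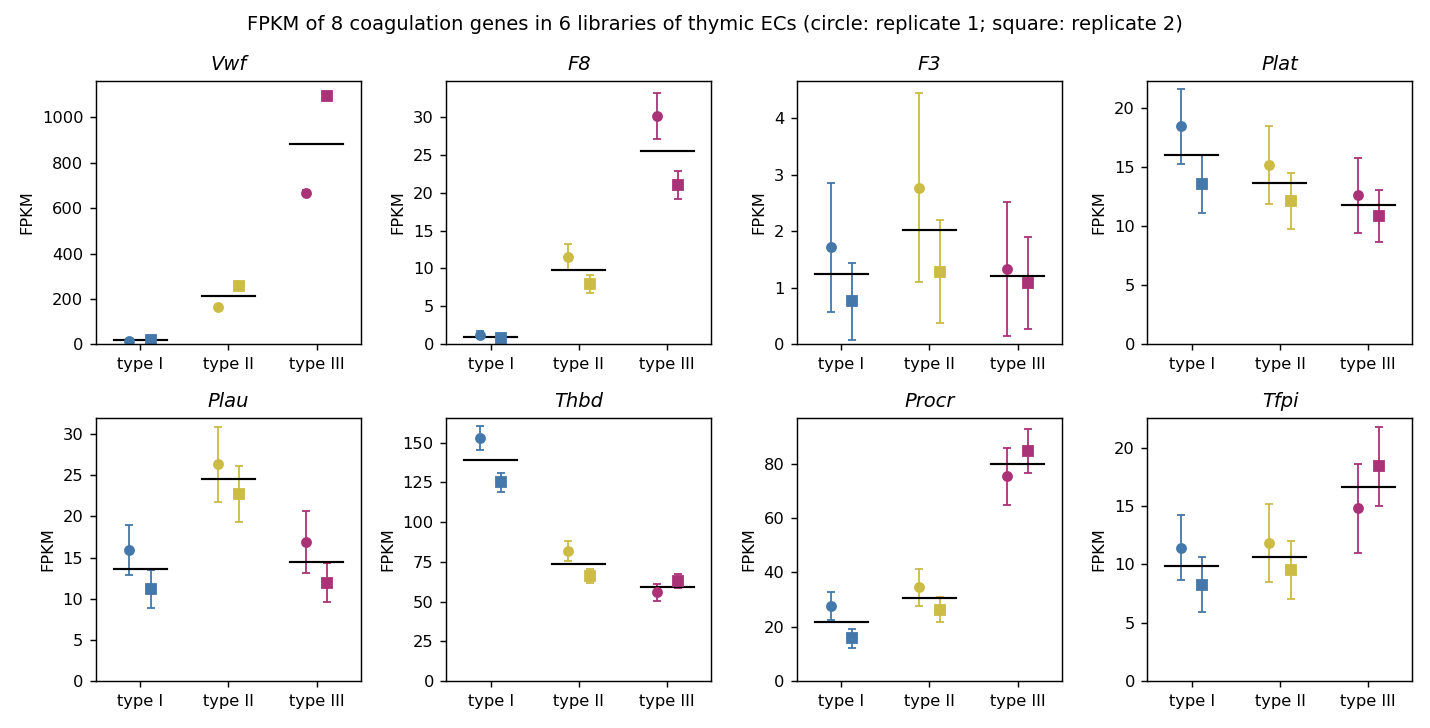
FPKM of the 8 coagulation genes (y axis, from 0, a scale of its own per gene) in the 6 libraries of type I, type II and type III thymic ECs (x axis); circles are replicate 1, squares replicate 2, bars the deposited 95% intervals and black lines the means of 2. Vwf and F8 step up from type I to type III without overlap, Procr is highest in type III at 75.3 and 84.6, and Thbd is highest in type I at 152.9 and 125.0.

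F8 (mm9 chrX:72418056-72625380, minus strand), the cofactor that von Willebrand factor carries, was at 1.26 and 0.755 FPKM in the type I libraries, 11.5 and 7.95 in type II, and 30.1 and 21.0 in type III. The 3 subsets did not overlap, and the estimated fragments were 25 and 19 in type I, 182 and 196 in type II, and 404 and 498 in type III. F8 rose 25.4-fold in type III over type I by the means, 25.6 ± 6.44 against 1.01 ± 0.354 FPKM (SD, n = 2), with a log2 difference of 3.72 ± 0.33 (SE; limma adjusted p = 0.000529). It rose 9.68-fold in type II over type I, 2.41 ± 0.33 on the log2 scale (limma adjusted p = 0.0215). Between type III and type II the difference of 1.31 ± 0.33 was not called (limma adjusted p = 0.194), with a 95% interval of 0.55 to 2.06. The pseudocount of 1 lowers the log2 difference of such a low gene, and with a pseudocount of 0.1 it was 4.55 between type III and type I.

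The call of F8 in type III against type I was made in 6 of 6 fits that left out 1 library. The call in type II against type I was not made without type I replicate 2 (limma adjusted p = 0.12), type II replicate 1 (0.138) or type II replicate 2 (0.0723). Lymphatic ECs are known to contain F8 transcripts. Their 5 markers, 3 of them tested, summed to 1.92 to 3.94 FPKM in type I, 2.85 to 5.17 in type II and 6.37 to 21.95 in type III. Lyve1 was at 12.4 and 1.08 FPKM in the type III libraries and listed at 0 in type I, Prox1, their defining transcription factor, was at 3.05 and 3.22 in type III and at 0.324 and 0.519 in type I, and Ccl21a was listed at 0 throughout. Pdpn, which encodes podoplanin, was at 3.50 and 1.40 in type I, 4.64 and 1.64 in type II, and 5.18 and 1.90 in type III, and the subsets overlapped. The part of such cells in the F8 difference was not tested. The span of F8 also holds 2 other annotated genes, and the strand setting of the quantification is not given in the sources used here.

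Within a library, the ratio of Vwf to F8 was 11.9 and 24.5 in type I, 14.2 and 32.5 in type II, and 22.2 and 52.1 in type III. The subsets overlapped in this ratio in all 3 comparisons, while neither gene alone overlapped. The higher ratio of each subset was that of replicate 2, where Vwf was higher and F8 lower than in replicate 1.

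F3 (mm9 chr3:121426455-121437970, plus strand), tissue factor, the cell surface starter of coagulation, was near the detection limit. It was at 1.71 and 0.762 FPKM in type I, 2.77 and 1.29 in type II, and 1.33 and 1.08 in type III, from 5 to 11 estimated fragments a library. The subsets overlapped in all comparisons, and 3 fragments of this gene amount to 0.457 to 0.800 FPKM. The difference between type III and type I was 0.01 ± 0.42 (SE; limma adjusted p = 0.996) with a 95% interval of -0.93 to 0.96. That interval measures the spread between libraries, on a scale that the pseudocount of 1 compresses for so low a gene. With a pseudocount of 0.1 the difference was 0.06 ± 0.68. Its sign turned to -0.07 when the libraries were scaled to the same FPKM sum.

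Tfpi (mm9 chr2:84273017-84316932, minus strand), the inhibitor of tissue factor and factor Xa, was at 11.4 and 8.26 FPKM in type I, 11.9 and 9.50 in type II, and 14.8 and 18.4 in type III. Both type III libraries were above the other 4, and type I and type II overlapped. The log2 difference between type III and type I, 0.71 ± 0.29 (SE), was not called (limma adjusted p = 0.311). Its 95% interval was 0.05 to 1.37. The ratio of Tfpi to F3 was 6.68 and 10.8 in type I, 4.28 and 7.38 in type II and 11.1 and 17.0 in type III, and rests on the few fragments of F3.

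Thbd (mm9 chr2:148230207-148233924, minus strand), thrombomodulin, the thrombin receptor of the protein C pathway, was at 152.9 and 125.0 FPKM in the type I libraries, 81.6 and 66.2 in type II, and 55.9 and 62.9 in type III. Type I was highest and type III lowest, and no subsets overlapped. Its mean was 57.3% lower in type III than in type I, 59.4 ± 4.92 against 139.0 ± 19.7 FPKM (SD, n = 2), and it fell by 1.21 ± 0.24 on the log2 scale (limma adjusted p = 0.0237). This call was made in 2 of 6 fits that left out 1 library. It was not made without type I replicate 1 (limma adjusted p = 0.0662), type II replicate 2 (0.052), type III replicate 1 (0.18) or type III replicate 2 (0.101). The mean in type II was 46.8% lower than in type I, a difference of -0.90 ± 0.24 (limma adjusted p = 0.238), and type III differed from type II by -0.31 ± 0.24 (limma adjusted p = 0.753).

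Procr (mm9 chr2:155576953-155581214, plus strand) encodes EPCR, which presents protein C to the thrombin-thrombomodulin complex. It was at 27.7 and 15.7 FPKM in type I, 34.4 and 26.3 in type II, and 75.3 and 84.6 in type III. Both type III libraries were far above the other 4, and type I overlapped type II. Procr rose 3.69-fold in type III over type I by the means, 79.9 ± 6.60 against 21.7 ± 8.47 FPKM (SD, n = 2), with a log2 difference of 1.88 ± 0.31 (limma adjusted p = 0.00939). The call was made in 5 of 6 fits that left out 1 library, and not without type III replicate 2 (limma adjusted p = 0.0627). Between type III and type II the difference was 1.38 ± 0.31 (limma adjusted p = 0.139), and between type II and type I it was 0.51 ± 0.31 (limma adjusted p = 0.828).

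Thbd and Procr, whose products act together on the cell surface, thus lay in opposite order. The ratio of Thbd to Procr was 5.53 and 7.97 in the type I libraries, 2.37 and 2.52 in type II, and 0.743 in both type III libraries. The transcript of thrombomodulin was the higher of the pair in types I and II and the lower in type III, on the length-scaled FPKM. Placing each gene on a scale of 0 at the type I mean and 1 at the type III mean of log2(FPKM + 1), type II lay at 0.75 for Thbd and at 0.27 for Procr. It lay at 0.63 for Vwf and at 0.65 for F8. The libraries of type II were at 0.62 and 0.87 for Thbd, and at 0.37 and 0.17 for Procr.

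**Figure D2:**
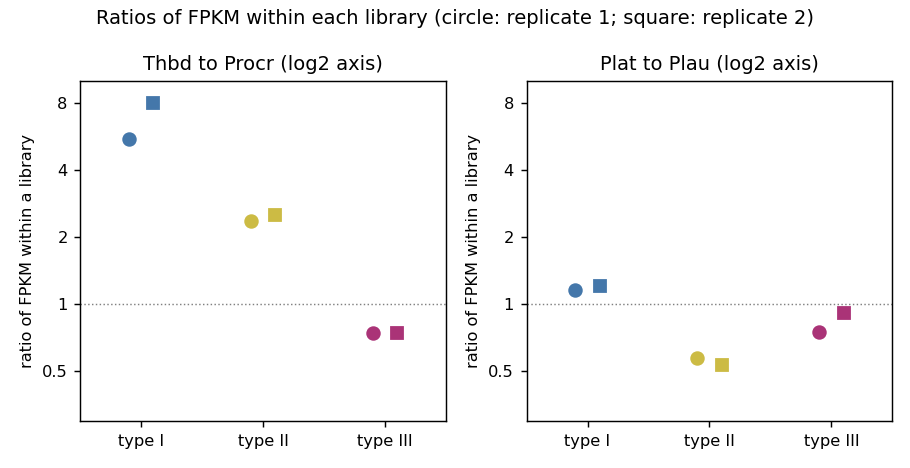
Ratio of FPKM within each library (y axis, log2 scale, the same in both panels) for Thbd to Procr and Plat to Plau in type I, type II and type III thymic ECs (x axis; circles replicate 1, squares replicate 2; dotted line at 1). Thbd to Procr falls from 5.53 and 7.97 in type I to 0.743 in both type III libraries, and Plat to Plau is lowest in type II.

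Plat (mm9 chr8:23868216-23893320, plus strand), the tissue-type plasminogen activator, was at 18.5 and 13.6 FPKM in type I, 15.2 and 12.1 in type II, and 12.6 and 10.9 in type III. Type III was below type I without overlap, and type II overlapped both. The log2 difference between type III and type I was -0.41 ± 0.28 (SE; limma adjusted p = 0.638) with a 95% interval of -1.05 to 0.24.

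Plau (mm9 chr14:21655884-21662610, plus strand), the urokinase-type activator, was at 15.9 and 11.2 FPKM in type I, 26.4 and 22.7 in type II, and 16.9 and 11.95 in type III. Both type II libraries were above the other 4, and types I and III overlapped. The mean of type II was 1.81-fold that of type I, a log2 difference of 0.83 ± 0.29 (SE; limma adjusted p = 0.497), and type III differed from type II by -0.74 ± 0.29 (limma adjusted p = 0.455), so neither was called. The 8 fibroblast markers, all 8 tested, were also highest in type II on average, with sums of 503 and 290 FPKM against 301 and 179 in type I and 205.5 and 188.5 in type III. Their part in the Plau values was not tested. The ratio of Plat to Plau was 1.16 and 1.21 in type I, 0.576 and 0.533 in type II, and 0.748 and 0.910 in type III, with no overlap between subsets.

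Of the 7 members with a test, 3 were called in type III against type I (F8 and Procr higher, Thbd lower), where 4.14% of all tested genes were called, 2.09% higher and 2.05% lower. In type II against type I, 1 of 7 was called (F8), against 0.393% of all genes. In type III against type II limma called 0 of 7, against 0.222% of all genes. The unadjusted limma p was under 0.05 for 3 of the 7, F8 (0.00346), Procr (0.00154) and Plau (0.0326). How many of all genes reach that cut was not counted, here or for the lists below, so such counts have no background. Libraries did not overlap for 5 of 7 members in type III against type I, where this held for 37.9% of all genes. They did not overlap for 3 of 7 in type II against type I (33.6% of all genes) and for 5 of 7 in type III against type II (41% of all genes). The 3 of 7 are near their background. Because the members were chosen with earlier results of these data known, these counts do not measure an enrichment.

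**Figure D3:**
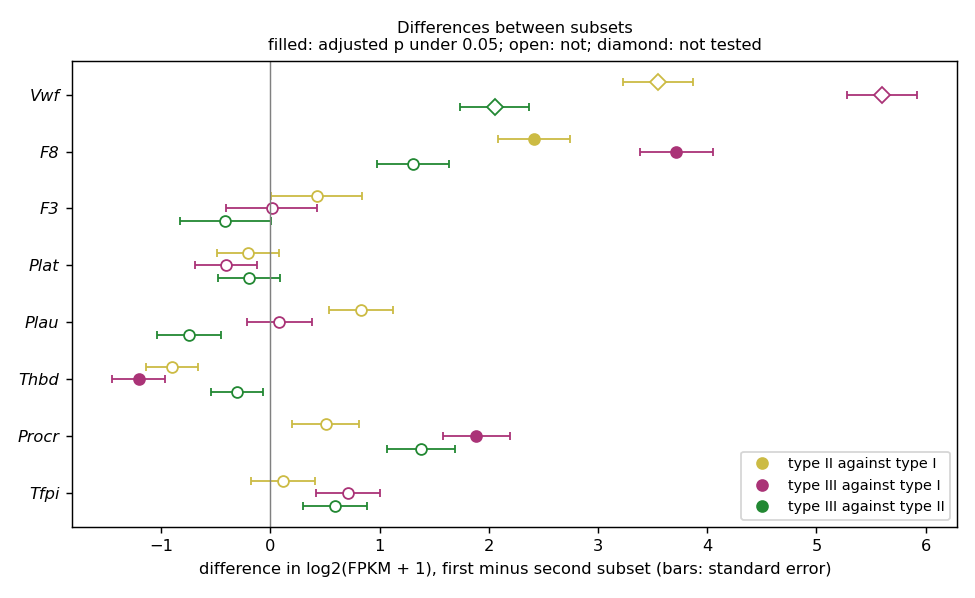
Difference in mean log2(FPKM + 1) between subsets (x axis) for each member (y axis), as points with standard errors; filled circles have an adjusted p under 0.05, open circles do not, and the diamonds of Vwf were not tested. F8 is called against type I in both other subsets (2.41 and 3.72), Procr (1.88) and Thbd (-1.21) in type III against type I.

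Beyond the members, 8 lists hold 75 genes of coagulation, fibrinolysis and the Weibel-Palade body reported here, of which 50 passed the filter on low values. In type III against type I, 8 of the 50 were called, 7 higher and 1 lower, or 16.0% against 4.14% of all tested genes. The lists were chosen with earlier results of these data known, so the gap between these shares does not measure an enrichment. The median log2 difference of the 50 was 0.23, against 0.08 over all tested genes. In type II against type I, 1 of 50 was called (2.0%, against 0.393% of all tested genes). In type III against type II limma called 0 of 50, against 0.222% of all tested genes. In each of these comparisons 9 of the 50 had an unadjusted limma p under 0.05, a share not counted over all genes.

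In type III against type I, 2 of 5 tested genes in the anticoagulant list were called higher, against 2.09% of all tested genes. These 2 were Tfpi2, whose product is also known to inhibit plasmin, and Hs3st1. Tfpi2, a Kunitz-type protease inhibitor related to Tfpi, was at 4.88 and 2.93 FPKM in type I, 25.9 and 11.3 in type II, and 25.7 and 20.2 in type III (2.31 ± 0.40; limma adjusted p = 0.0128). Hs3st1, which makes the heparan sulfate that binds antithrombin, was at 12.3 and 10.3 in type I, 14.5 and 16.9 in type II, and 39.8 and 46.2 in type III (1.84 ± 0.26; limma adjusted p = 0.00453). The call of Tfpi2 was not made without type I replicate 2 or without type III replicate 1. Of the 5 tested fibrinolysis genes reported here, limma called 0 in each comparison, with 0 at an unadjusted p under 0.05. The most abundant of them, Anxa2, a cell surface receptor for plasminogen and its tissue-type activator, was at 175.8 and 166.7 FPKM in type I, 137.3 and 141.9 in type II, and 167.8 and 163.2 in type III. Its difference between type III and type I was -0.05 (limma adjusted p = 0.964).

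Among 9 tested genes for the processing and clearance of von Willebrand factor and factor VIII, 2 were called higher in type III than type I. Over all tested genes this share was 2.09%. Stab1, a scavenger receptor, was at 21.96 and 23.7 FPKM in type I, 30.3 and 46.8 in type II, and 84.3 and 133.2 in type III (2.17 ± 0.31; limma adjusted p = 0.00502). Macrophages also express Stab1, and the 10 macrophage and dendritic cell markers, 9 of them tested, summed to 398 and 58.0 FPKM in type I, 158 and 57.4 in type II, and 623 and 110 in type III. Their part in the Stab1 difference was not tested. Thbs1, thrombospondin-1, which can loosen multimers of von Willebrand factor, was at 52.4 and 43.4 in type I, 126.1 and 177.0 in type II, and 185.5 and 243.9 in type III. It was called in type III (2.13 ± 0.27; limma adjusted p = 0.00254) and in type II (1.63; limma adjusted p = 0.0468) against type I, and the latter call was made in 0 of 6 fits that left out 1 library.

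In type III against type I, 4.14% of all tested genes were called. The Weibel-Palade body list had 3 called genes of 18 tested there, 2 higher and 1 lower. P-selectin, on which the subsets were sorted, is also stored in these granules and was not in the list. Angpt2, a stored ligand of the receptor Tie2, was at 12.99 and 9.49 FPKM in type I and 35.9 and 32.6 in type III (1.54 ± 0.26; limma adjusted p = 0.012). Edn1, the precursor of the vasoconstrictor endothelin-1, was at 6.24 and 8.22 in type I and 23.9 and 28.8 in type III (1.74 ± 0.28; limma adjusted p = 0.00873). Igfbp7, an abundant secreted protein also found in these granules, ran the other way, at 3422 and 3403 in type I, 1875 and 1807 in type II, and 849.6 and 1026 in type III (a fall by 1.87 on the log2 scale; limma adjusted p = 0.00255). Pericytes express Igfbp7 too, and the 10 pericyte and smooth muscle markers summed to 575.7 and 231.5 FPKM in type I, 579.6 and 432.8 in type II and 174.9 and 246.2 in type III. Of the 9 tested, 3 were called lower and 1 higher in type III than in type I, against 2.05% and 2.09% of all genes. Their part in the Igfbp7 difference was not tested. The calls of Angpt2 and Edn1 were not made without type III replicate 2, and that of Angpt2 also not without type I replicate 2 or type III replicate 1.

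In type III against type I, 2.09% of all tested genes were called higher. Of 5 tested genes in the list of platelet inhibition at the vessel wall, Ptgs1 was called higher there. Its product, cyclooxygenase-1, makes the precursor of prostacyclin and of other prostanoids. Ptgs1 was at 11.5 and 7.37 FPKM in type I, 20.5 and 24.3 in type II, and 50.97 and 43.9 in type III (2.24 ± 0.28; limma adjusted p = 0.00271). Ptgis, the prostacyclin synthase, was at 0.288 to 2.73 FPKM and was not called there (limma adjusted p = 0.903). Limma called 0 of the 3 tested genes in the thrombin receptor list in each comparison. Of these, F2rl1 encodes a related receptor that is cut mainly by other proteases. The unadjusted limma p was under 0.05 for 2, 0 and 1 in type III against type I, type II against type I and type III against type II. The most abundant, F2r (PAR1), was at 52.3 and 35.0 in type I and 30.3 and 16.3 in type III (-0.91; limma adjusted p = 0.232). Limma called 0 of the 3 vitamin K cycle genes, with 0 at an unadjusted p under 0.05 in each comparison, and Vkorc1, the warfarin target, was at 34.6 and 13.6 in type I and 21.6 and 23.7 in type III. Of the 12 procoagulant factors 2 were tested, F13a1 and F10, and limma called neither, with 1, 1 and 0 at an unadjusted p under 0.05. Where there was 1, it was F10, lower than in type I. F10 was at 1.53 and 1.885 FPKM in type I, 0.366 and 0.351 in type II, and listed at 0 and at 0.225 in type III. F13a1, the factor XIII A subunit, had the highest mean of the list, at 0.419 to 2.74 FPKM. F9, F11, F12, F13b and Fgb, made mainly by the liver, were listed at 0 in all 6 libraries.

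**Figure D4:**
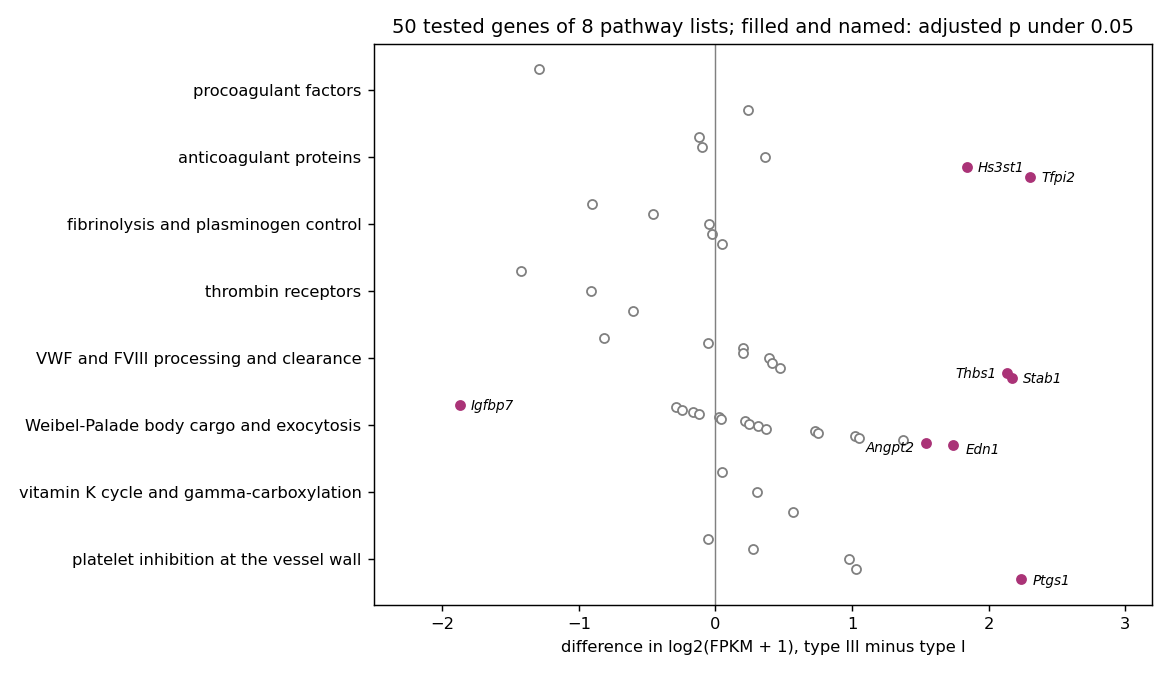
Difference in mean log2(FPKM + 1) between type III and type I (x axis) of the 50 tested genes in 8 pathway lists (y axis), 1 point a gene, spread vertically for legibility. The 8 filled and named genes have an adjusted p under 0.05, and 7 of them lie to the right of 0 while Igfbp7 lies at -1.87.

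The genes whose log2(FPKM + 1) ran closest to that of Vwf over the 6 libraries, of 4861 candidates with a mean of at least 10 FPKM in their highest subset, were Kank1 (Pearson r = 0.998), Tmem2 (0.995), Fgf23 (0.995), Slc2a1 (0.995) and Bcr (0.995). These values describe 6 points in 3 subsets, which share library and depth. Kank1 was at 6.84 and 7.25 FPKM in the type I libraries, 20.8 and 25.2 in type II, and 46.2 and 53.3 in type III. Fgf23, which encodes a phosphate-regulating hormone, was at 0.255 and 0.204 in type I, 26.1 and 37.4 in type II, and 155.3 and 172.0 in type III.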

How the data were processed

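RNA of 6 libraries of sorted thymic ECs, 2 per subset, was measured by paired-end sequencing. The submitters' processing notes name CASAVA 1.8, TopHat2 2.0.10 and Cufflinks 2.1.1, and the build is mm9. The deposited values are FPKM, which the authors computed per library and gene with the bounds of a 95% interval, without pooling replicates or scaling between libraries. Fragments were read back from those bounds as if they held counting error alone, so they are estimates, and intervals and limits from them cover counting error only. Left out were 95 rows of spike-in and reporter sequences.

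Groups came from the labels. Genes that reached an FPKM of 1 in 2 or more libraries (11717 of 24457) were compared on log2(FPKM + 1) with limma 3.58.1 in R 4.3.3 (lmFit, eBayes with a trend), 1 fit over all 6 libraries with a mean per subset, so fold changes of low genes are understated. The Benjamini-Hochberg adjustment ran over all tested genes, with a threshold of 0.05. The study used Cuffdiff, which needs reads. Tested on simulated data for type III against type I (11717 genes, 200 changed), limma recovered 69% of the genes changed by 2 on the log2 scale and 90% of those changed by 3, 3.64% of its calls were wrong, and it made 0 calls with no gene changed. The simulated libraries had independent noise with a capped SD per gene, and only genes above a minimum mean were changed. These rates may therefore not hold for the real libraries or for low genes.

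The members, the 8 pathway lists and the 8 cell type lists were chosen with earlier results of these data known. A pathway gene is not reported here and is left out of the list counts. Named are all members, every pathway gene called in a comparison, the most abundant gene of a pathway list without a call, the 5 genes most like Vwf by Pearson correlation, and cell type markers where their list is described. F10, F9, F11, F12, F13b and Fgb were named after their values were seen. Loci are 1-based on mm9, with strand and gene type from GENCODE vM1. Promoter windows are from RefSeq, whose table held 4 of the 8 members, and an earlier search with a looser form of the NF-kB motif had matched the F8, F3 and Procr windows. The alternatives were another pseudocount (0.1), no filter, scaling to the same sum, quantile normalization, the replicate number as a block, eBayes without the trend, only the samples compared, and each library left out.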

Additional observations from a re-analysis of the deposited data

How the results depend on the processing

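Depth limits F3 and type I F8, and 2 libraries per subset limit every p-value. Leaving out 1 library in turn gave 233 to 425 called genes in type III against type I (485 with all), 12 to 46 in type II against type I (46) and 5 to 47 in type III against type II (26). For members it gave 1 to 3 (3), 0 to 1 (1) and 0 to 0 (0), and for pathway genes 6 to 10 (8), 0 to 0 (1) and 0 to 0 (0). In the same order of comparisons, no filter on low values gave 102, 10 and 2 genes, 0, 0 and 0 members and 0, 0 and 0 pathway genes, where more genes are tested. Scaling to the same sum gave 97 genes in type II against type I and 109 in type III against type II, with 3 and 1 pathway genes, and quantile normalization gave 103 and 90 with 3 and 1. Without the trend these comparisons gave 15 and 10 genes, with 0 members and 0 pathway genes in type II against type I. With only the samples compared there were 40 genes in type III against type II and 0 pathway genes in type II against type I, and a pseudocount of 0.1 also gave 0 pathway genes there. The causes were not tested.

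Each comparison has 2 numbered pairs, and the labels do not say what a number marks, so they were not taken as pairs. With the replicate block, 971, 183 and 229 genes were called in type III against type I, type II against type I and type III against type II. Pathway genes were 13, 2 and 4. Members in type III against type II were 2, F8 and Procr (limma adjusted p = 0.0355 for both). Deviations of same-numbered libraries correlated at 0.20 (types I and II), 0.31 (I and III) and 0.18 (II and III).

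Scaling to the same sum moved the median of all genes by -0.13 in type III against type I, 0.06 in type II against type I and -0.20 in type III against type II. The share of higher calls in type III against type II was 42.3% as deposited, 16.5% with the same sum and 24.4% by quantiles, and in type II against type I 82.6% against 70.9% by quantiles.

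Of 273 values of the 7 tested members, 247 kept their direction and side of the threshold, 15 lost a call, 2 gained one and 9 changed sign, all of uncalled differences. The 39 values of Vwf, which has no test, kept their direction in 39. F3 in type III against type I was -0.073 with the same sum, -0.0078 by quantiles and -0.30 to 0.32 with 1 library left out. Plau there was -0.063 with the same sum and -0.15 to 0.32 with 1 library left out, and Tfpi in type II against type I was -0.10 to 0.33. In type III against type I, the limma adjusted p without a filter was 0.0525 for F8, 0.196 for Procr and 0.142 for Thbd, and that of Thbd was 0.0738 without the trend and 0.0507 with only the samples compared.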

Other observations

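Between the replicates of a subset, Vwf was higher in replicate 2 in all 3 subsets, by 0.31 (type I), 0.66 (type II) and 0.71 (type III) in log2 FPKM. F8 was lower in replicate 2 in all 3, by -0.73, -0.53 and -0.52, and F3, Plat and Plau were also lower there in all 3. The median over the tested genes, on log2(FPKM + 1), was -0.39, -0.14 and -0.18. That scale compresses gaps of low genes, so the medians and the member gaps are not on the same scale. Replicates have no order, and the cause was not tested.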
